A study of Homo sapiens with 2 samples.

Results

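Genes of the TGF-beta, activin, nodal and BMP pathways were followed in HEK293T cells that expressed IRX1::GFP, with cells expressing GFP alone as the mock control. A probe set, which measures a stretch of a transcript, was taken where the array's annotation gave exactly 1 of 52 listed symbols. This gave 146 probe sets for 49 of the 52 genes, out of 54675 probe sets and 19775 named genes on the array. LEFTY2, TDGF1 and BMPR1A had no probe set under this rule and are not analysed here. The 49 genes were split into 18 ligands with their partners, 7 antagonists, 9 receptors, 12 SMADs and SMAD regulators, and 3 latent TGF-beta binding proteins.

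HEK293T is a line from human embryonic kidney in which SV40 large T antigen is expressed. The cells had been transfected transiently, with polyethylenimine as carrier, either with pcDNA3.1-IRX1::GFP or with pcDNA3.1-GFP, plasmids that drive expression from a strong viral promoter. GFP-positive cells were sorted and their RNA was isolated 48 h after transfection, so both conditions share the transfection, the GFP and the sort. Each condition had 1 array, which limits the precision. The study's legend names several replicates, and whether an array holds RNA of a single culture or a pool is not given in the sources used here. With 1 array per condition neither a replicate error nor a p-value can be given, and 2-fold is used as the limit for calling a gene higher or lower.

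All values are MAS5 signals, which are linear intensities. Ratios are log2 of IRX1::GFP over GFP control, positive where the IRX1::GFP signal was higher. Where a gene had several probe sets, the brightest on average stands for it, and the gene is counted where this average reached 183 (the filter, the median over all probe sets). Background was set at the 90th percentile of 107 probe sets for olfactory receptors, genes that kidney cells hardly use, and was 179 with IRX1::GFP and 143 in the GFP control. Where only 1 signal was above it, the fold is written as "at least", with the background level in place of the dimmer signal, while calls use the measured ratio. The log2 ratios of different probe sets of the same gene spread with an SD of 0.49 (5930 genes). No other noise can be measured here, and this one leaves out differences between cultures. In bulk RNA a lower level per cell cannot be told apart from fewer cells with the transcript. The single IRX1 probe set read 57.0 with IRX1::GFP and 33.1 in the GFP control, both under background, and does not check the labels. Of 8 HEK293T marker genes 7 were above background on both arrays. Of 13 markers of blood, endothelium, fibroblasts and adult kidney, 3 (CD14, HBB and PECAM1) were above it on both arrays and 6 on neither, PTPRC and CDH5 among them. The other 4 (CD3E, DCN, COL1A2 and AQP2) were above it in the GFP control only. The summed signal of these 13 markers was 2226 with IRX1::GFP and 1874 in the GFP control, with CD14 at 856 with IRX1::GFP and 327 in the GFP control. The part of other cells in the results below was not tested.

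Ligands of the TGF-beta superfamily are secreted as dimers and bind pairs of type II and type I receptor kinases on the cell surface. TGF-beta, activin and nodal receptors pass the signal on to SMAD2 and SMAD3, and BMP receptors to SMAD1, SMAD5 and SMAD9. These SMADs enter the nucleus together with SMAD4 and act on target genes. Antagonists outside the cell, inhibitory SMADs and ubiquitin ligases restrain the pathway. Nodal and activin signalling is best known from the early embryo and from pluripotent stem cells, and BMP and TGF-beta signalling also act in kidney development.

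LEFTY1 and INHBB had much higher signals with IRX1::GFP, while the receptor genes ACVR2A and ACVR1 had lower ones. Of the 49 genes, 42 passed the filter. Of these 42, LEFTY1, INHBB, BMP1, BMP6, NODAL, SMAD3 and LTBP3 were higher by 2-fold or more (7 genes), and INHBE, ACVR2A, ACVR1 and SMAD1 lower by as much (4 genes). The remaining 31 genes were within 2-fold. Among the 7 higher genes, INHBB, BMP6 and NODAL passed the filter only through their IRX1::GFP signal, which favours a positive ratio. The 4 lower genes were above the filter level on both arrays. With a floor on low signals 5 members were higher, where 9.17% of all genes were. Over all 12193 genes past the filter, 10.4% were higher and 5.34% lower by this limit. The shares among the members were 16.7% and 9.52%, and with counts of this size such a gap from all genes is not a result about the group as a whole. By the measured ratio LEFTY1 and INHBB alone among the members were higher by 4-fold or more, where 1.59% of all genes were, and 0 members were lower by 4-fold or more, where 0.533% of all genes were. The median log2 ratio of the 42 genes was 0.21, and that of all genes 0.07. Median centring of the arrays moved the member median to 0.01 and that of all genes to -0.12. It left 5 members higher and 6 lower, and 7.29% and 8.83% of all genes.

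**Figure D1:**
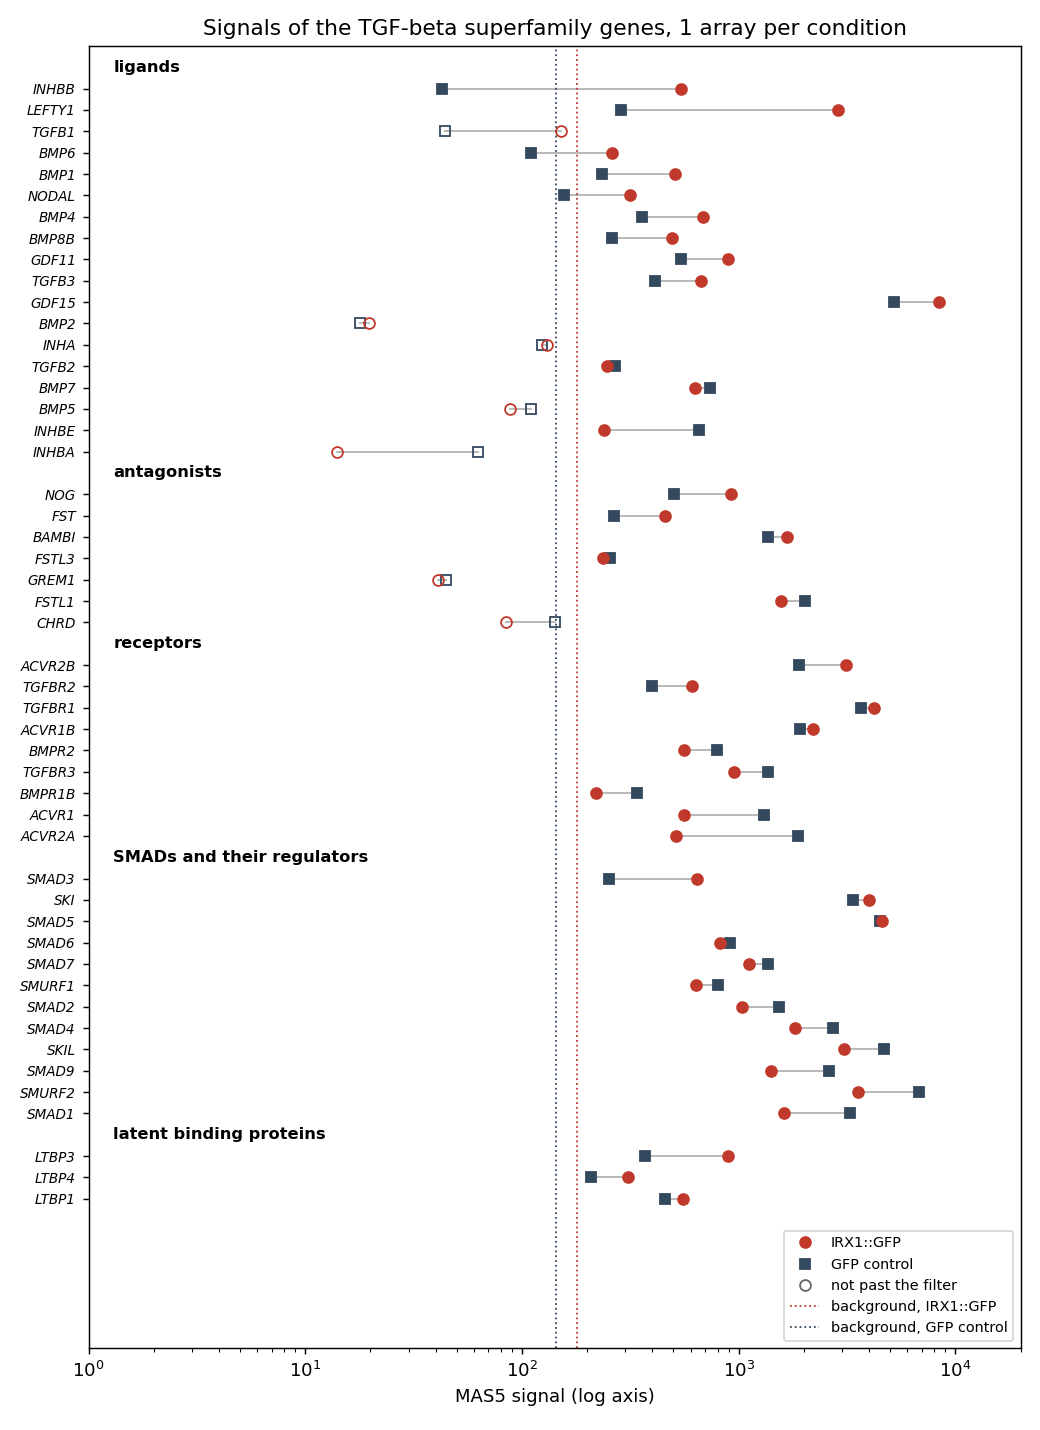
MAS5 signal on a log axis (x) of the brightest probe set on average for each of 49 genes (rows, by role), red circles for IRX1::GFP and dark squares for GFP control, with open symbols for the 7 genes not past the filter and dotted lines at the background level of each array. The circles of INHBB and LEFTY1 lie far to the right of their squares, and those of ACVR2A, INHBE and ACVR1 to the left.

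The medians differed between roles. Ligands past the filter had a median log2 ratio of 0.92, with 10 of 13 above 0. Of these 10, INHBB, BMP6 and NODAL reached the filter only through their IRX1::GFP signal, which favours a positive ratio, and with a floor on low signals the median was 0.72. BMP1, a protease, is counted here with the ligands by its name, and LEFTY1, an antagonist of nodal, as a member of the ligand family. Receptors had a median of -0.50, with 4 of 9 above 0, and SMADs with their regulators -0.45, with 3 of 12 above 0. Of all genes past the filter 54.1% were above 0. The 5 antagonists had a median of 0.29 (-0.11 without a filter) and the 3 latent binding proteins 0.58 (-0.70 with only probe sets named by digits and _at). No difference between the roles was tested, since genes are not replicates. After median centring the ligand, receptor and SMAD medians were 0.73, -0.69 and -0.64. Quantile normalization gave 0.77, -0.58 and -0.49, and loess 0.79, -0.55 and -0.48. Median centring moves every ratio by the same amount, and all of these rescalings reuse the same arrays. The kept signs are therefore no independent support for a difference between the roles. When the ratios of a gene's probe sets were averaged, the receptor median was -0.02.

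**Figure D2:**
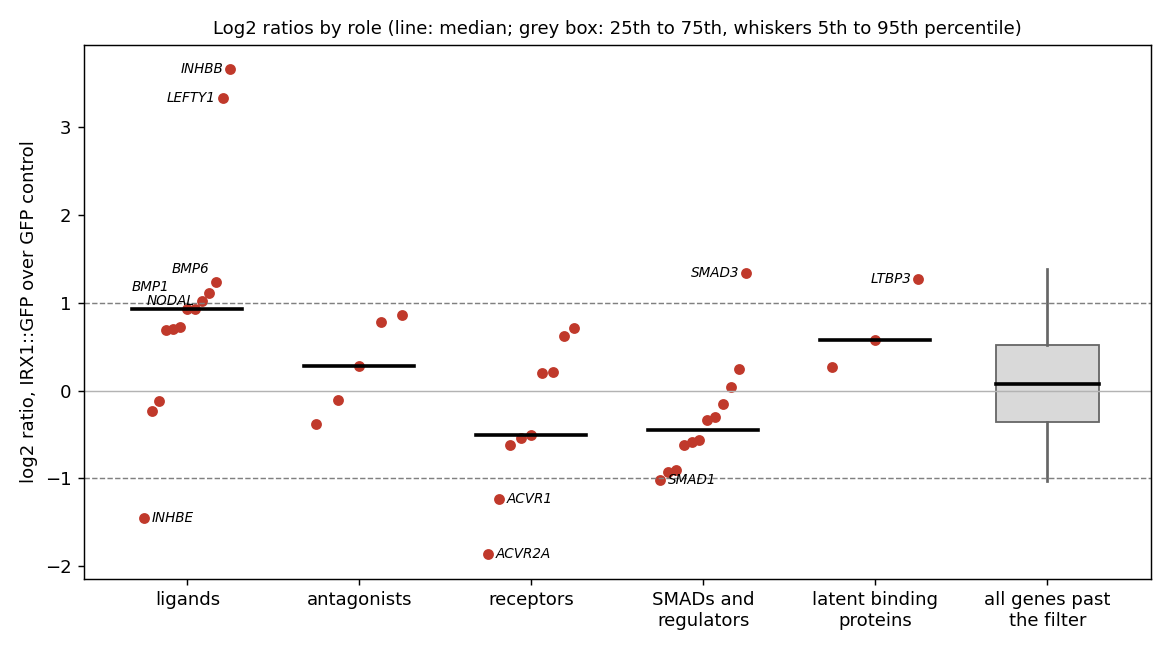
Log2 of IRX1::GFP signal over GFP control signal (y) for each of the 42 genes past the filter, by role, with black lines at the medians, dashed lines at 2-fold, and at the right the 25th to 75th percentile (box) and the 5th to 95th percentile (whiskers) of all 12193 genes past the filter. Most ligands lie above the median of all genes and most SMADs and regulators below it.

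Promoter windows are printed for INHBB, at least 3.78-fold higher, taken because its measured log2 ratio was the largest of the members past the filter. Windows are also printed for 3 genes at least 2-fold different that hold ACANNTGT, the short site known for Iroquois homeodomain proteins such as IRX1. All these genes were chosen after the values were seen. The windows run from 250 bases before to 50 bases after an annotated start, are read 5′ to 3′ on the gene's strand, and come from RefSeq (GRCh38.p14). Capitals mark ACANNTGT, which reads the same on both strands and contains the E-box CANNTG.
INHBB, chr2:120345886-120346185, plus strand: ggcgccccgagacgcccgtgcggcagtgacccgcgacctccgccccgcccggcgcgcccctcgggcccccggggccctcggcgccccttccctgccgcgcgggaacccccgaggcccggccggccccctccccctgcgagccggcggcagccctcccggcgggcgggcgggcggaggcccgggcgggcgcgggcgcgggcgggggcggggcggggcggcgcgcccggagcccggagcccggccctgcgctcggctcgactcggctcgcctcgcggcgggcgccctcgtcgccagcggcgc
ACVR1, chr2:157874950-157875249, minus strand: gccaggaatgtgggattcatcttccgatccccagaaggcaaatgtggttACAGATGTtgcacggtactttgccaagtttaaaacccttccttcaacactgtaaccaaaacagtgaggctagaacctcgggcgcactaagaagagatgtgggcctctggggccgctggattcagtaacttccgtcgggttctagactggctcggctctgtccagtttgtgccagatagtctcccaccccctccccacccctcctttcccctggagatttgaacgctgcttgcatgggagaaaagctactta
SMAD1, chr4:145482555-145482854, plus strand: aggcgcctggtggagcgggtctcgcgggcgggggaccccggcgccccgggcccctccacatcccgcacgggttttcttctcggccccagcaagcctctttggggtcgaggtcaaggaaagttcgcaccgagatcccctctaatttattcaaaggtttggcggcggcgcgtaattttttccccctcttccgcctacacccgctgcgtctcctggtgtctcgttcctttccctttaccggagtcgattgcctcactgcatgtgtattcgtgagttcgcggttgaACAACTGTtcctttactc
SMAD3, chr15:67125492-67125791, plus strand: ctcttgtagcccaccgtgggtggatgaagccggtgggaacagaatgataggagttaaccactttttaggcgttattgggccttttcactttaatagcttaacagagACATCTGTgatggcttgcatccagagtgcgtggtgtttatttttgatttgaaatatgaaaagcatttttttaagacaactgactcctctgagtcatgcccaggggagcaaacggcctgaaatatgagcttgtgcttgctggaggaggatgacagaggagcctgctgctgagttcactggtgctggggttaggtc
The INHBB window holds no ACANNTGT and is 88.7% G and C, where the median of all windows is 58.7%. The ACVR1 window is 1 of 3 for that gene, a second of which also holds the site, and those of SMAD1 and SMAD3 are 1 of 5 each. Which starts are used in HEK293T cells is not known from the arrays. Of 49 members 42 were matched to a window by symbol. LEFTY1, INHBE and BMP1, each at least 2-fold different, were not matched and so were not searched for the site. Of the 42 matched members 4 (LTBP1, ACVR1, SMAD1 and SMAD3) held ACANNTGT, 9.52%, where 6.84% of all 27305 genes did. Per window the shares were 6.76% of 74 and 5.62% of 35116. The SMAD box CAGAC, searched on both strands and unable to lie inside ACANNTGT, was in 50% of the members' windows and in 45.3% of all windows. The palindrome GTCTAGAC was in 1 member window, that of SMAD6, and in 0.202% of all windows. ACVR1 and SMAD1 were lower and SMAD3 was higher with IRX1::GFP. These matches describe letters in the windows and do not show binding.

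LEFTY1 was 10.1-fold higher, at 2873 with IRX1::GFP and 285 in the GFP control, a log2 ratio of 3.33. LEFTY proteins are secreted members of the family that block nodal signalling, and LEFTY1 is itself a known target of nodal. Its single probe set stood above background on both arrays. LEFTY1 and LEFTY2 are close copies and neighbouring genes, and whether this probe set tells them apart is not known. A probe set annotated for both genes read 363 with IRX1::GFP and 138, under background, in the GFP control, at least 2.54-fold higher. NODAL, the ligand that LEFTY proteins oppose, read 317 with IRX1::GFP and 156 in the GFP control, 2.03-fold higher. Both NODAL signals were near background, and its other 2 probe sets were under background on both arrays. After median centring the log2 ratio of NODAL was 0.83, within 2-fold.

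The inhibin and activin chain genes went different ways. INHBB, which encodes the beta-B chain of activins and inhibins, read 542 with IRX1::GFP and 42.8 in the GFP control, at least 3.78-fold higher. The GFP control signal of INHBB was under background, so its measured log2 ratio of 3.66 is no firm size. INHBE, which encodes the beta-E chain made mainly in liver, was 2.73-fold lower, at 240 with IRX1::GFP and 657 in the GFP control. INHA, the alpha chain that turns activins into inhibins, was at 130 with IRX1::GFP and 124 in the GFP control, and all 3 probe sets of INHBA, the beta-A chain, were under background on both arrays. For INHA and INHBA no fold is given. INHBC, a chain gene from the list of further pathway genes described below, read 1560 with IRX1::GFP and 1611 in the GFP control, within 2-fold.

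Among the BMP genes, BMP6 was at least 1.82-fold higher, at 260 with IRX1::GFP and 110, under background, in the GFP control. BMP6 counts as 2-fold by its measured log2 ratio of 1.24, and the other 2 BMP6 probe sets were under background. BMP1 is not a ligand but a protease that cuts procollagen and chordin, and it was 2.17-fold higher, at 507 with IRX1::GFP and 234 in the GFP control. The second BMP1 probe set past the filter read 263 with IRX1::GFP and 175 in the GFP control, within 2-fold. After median centring the log2 ratio of BMP1 was 0.92. BMP4, which patterns the early embryo and the kidney, lay just under the limit at 685 with IRX1::GFP and 359 in the GFP control, 1.91-fold higher. BMP8B, a BMP known from germ cells in the mouse, was 1.90-fold higher, at 494 with IRX1::GFP and 260 in the GFP control. The second BMP8B probe set past the filter was 1.29-fold higher, at 362 with IRX1::GFP and 281 in the GFP control. BMP7, a BMP of the developing kidney, had 3 probe sets past the filter at log2 ratios of -0.23, 0.19 and -0.31. BMP2 and BMP5 were under background on both arrays.

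TGFB1, the growth factor TGF-beta 1, was placed by the study among the genes most raised with IRX1, on the basis of its arrays. The study also reported higher TGFB1 transcription by quantitative PCR in cells with induced IRX1 expression, a measurement that is not part of these arrays. Both TGFB1 probe sets were under the background used here on both arrays. The first read 152 with IRX1::GFP and 44.1 in the GFP control, and the second 114 with IRX1::GFP and 6.04 in the GFP control, so no fold is given. TGFB3, another TGF-beta isoform, was 1.63-fold higher, at 669 with IRX1::GFP and 411 in the GFP control. The third isoform gene, TGFB2, read 248 with IRX1::GFP and 269 in the GFP control. GDF11, a ligand close to myostatin, had 3 probe sets past the filter, all above 0 and within 2-fold, the first at 889 with IRX1::GFP and 540 in the GFP control. GDF15, a stress-induced hormone of the family, read 8391 with IRX1::GFP and 5191 in the GFP control, 1.62-fold higher. Among the 7 ligands past the filter and within 2-fold, TGFB2 and BMP7 were below 0, where 54.1% of all genes past the filter were above it. So few genes do not describe ligands as a group.

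Apart from LEFTY1, described above with the ligands, 5 antagonists passed the filter, and all 5 were within 2-fold. NOG, which encodes the BMP trap noggin, came closest, at 918 with IRX1::GFP and 504 in the GFP control, 1.82-fold higher. FST, whose product follistatin binds activin, was 1.71-fold higher, at 457 with IRX1::GFP and 267 in the GFP control, and at least 1.73-fold higher on its second probe set past the filter. BAMBI, a decoy receptor, read 1669 with IRX1::GFP and 1369 in the GFP control. The follistatin-like genes FSTL1, at 1566 with IRX1::GFP and 2032 in the GFP control, and FSTL3, at 237 with IRX1::GFP and 255 in the GFP control, were slightly lower. CHRD, which encodes chordin, and GREM1, which encodes gremlin, were under background on both arrays.

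All 9 receptor genes passed the filter, 2 of them lower and 0 higher by 2-fold or more, where 5.34% and 10.4% of all genes were, and 9 genes are too few to describe receptors as a group. ACVR2A, a type II receptor for activins and some BMPs, was 3.64-fold lower, at 517 with IRX1::GFP and 1880 in the GFP control. Its other probe set gave 320 with IRX1::GFP and 903 in the GFP control, 2.82-fold lower. ACVR1, the type I receptor also known as ALK2, was 2.35-fold lower, at 557 with IRX1::GFP and 1309 in the GFP control, on its single probe set. The lower signal of ACVR2A was not shared by ACVR2B, the other activin type II receptor. All 3 ACVR2B probe sets were above 0, the first at 3119 with IRX1::GFP and 1909 in the GFP control, 1.63-fold higher.

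The other BMP receptor genes were lower within 2-fold. BMPR2, the BMP type II receptor, had 4 probe sets past the filter with log2 ratios of -0.02 to -0.50, and BMPR1B had -0.62 and -0.08. TGFBR3, the coreceptor betaglycan, was 1.45-fold lower, at 948 with IRX1::GFP and 1373 in the GFP control, and its second probe set agreed in sign. TGFBR2, the TGF-beta type II receptor, was 1.53-fold higher, at 608 with IRX1::GFP and 397 in the GFP control. The type I receptor genes TGFBR1, at 4233 with IRX1::GFP and 3667 in the GFP control, and ACVR1B, at 2210 with IRX1::GFP and 1920 in the GFP control, differed by less than the SD between probe sets of a gene.

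SMAD1 was lower and SMAD3 higher with IRX1::GFP. SMAD1, a BMP-activated SMAD, was 2.02-fold lower, at 1613 with IRX1::GFP and 3254 in the GFP control. Its second probe set past the filter was 1.73-fold lower, and after quantile normalization and loess the log2 ratio of SMAD1 was -0.97, within 2-fold. SMAD9, of the same branch, was 1.87-fold lower, at 1406 with IRX1::GFP and 2624 in the GFP control. SMAD5 was not: its first probe set read 4602 with IRX1::GFP and 4485 in the GFP control, and the other 4 lay between -0.74 and 0.05 on the log2 scale. SMAD3, activated by TGF-beta and activin, was 2.54-fold higher, at 639 with IRX1::GFP and 252 in the GFP control. This rests on 1 of 4 SMAD3 probe sets, and the mean log2 ratio over all 4 was 0.43. SMAD2, its partner in that branch, was lower on all 4 probe sets past the filter, by log2 ratios of -0.35 to -0.57. The common SMAD4 read 1820 with IRX1::GFP and 2739 in the GFP control, a log2 ratio of -0.59.

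Regulators of the SMADs stayed within 2-fold on their first probe sets. SMURF2, a ubiquitin ligase for SMADs and receptors, was lower on all 4 probe sets, the first at 3561 with IRX1::GFP and 6777 in the GFP control, 1.90-fold lower. SMURF1 was 1.26-fold lower, at 635 with IRX1::GFP and 800 in the GFP control. The inhibitory SMADs, which the pathway switches on as feedback, read 820 with IRX1::GFP and 914 in the GFP control for SMAD6, and 1116 with IRX1::GFP and 1371 in the GFP control for SMAD7. SKI and SKIL encode corepressors of SMAD complexes. SKIL was 1.53-fold lower, at 3072 with IRX1::GFP and 4701 in the GFP control, with a log2 ratio of -0.60 to -0.65 on 3 probe sets. The 3 SKI probe sets were all above 0, and 1 of them was 2.21-fold higher, at 734 with IRX1::GFP and 332 in the GFP control.

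The latent TGF-beta binding proteins tether inactive TGF-beta to the extracellular matrix. LTBP3 was 2.41-fold higher, at 889 with IRX1::GFP and 369 in the GFP control. Its second probe set was 4.42-fold higher, at 642 with IRX1::GFP and 145 in the GFP control, while the third was 1.63-fold lower, at 196 with IRX1::GFP and 318 in the GFP control. The LTBP3 probe sets thus disagreed in sign. LTBP4 disagreed in size. Its first probe set read 310 with IRX1::GFP and 207 in the GFP control, and its second 366 with IRX1::GFP and 27.6, under background, in the GFP control, at least 2.55-fold higher. LTBP1 read 551 with IRX1::GFP and 459 in the GFP control.

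**Figure D3:**
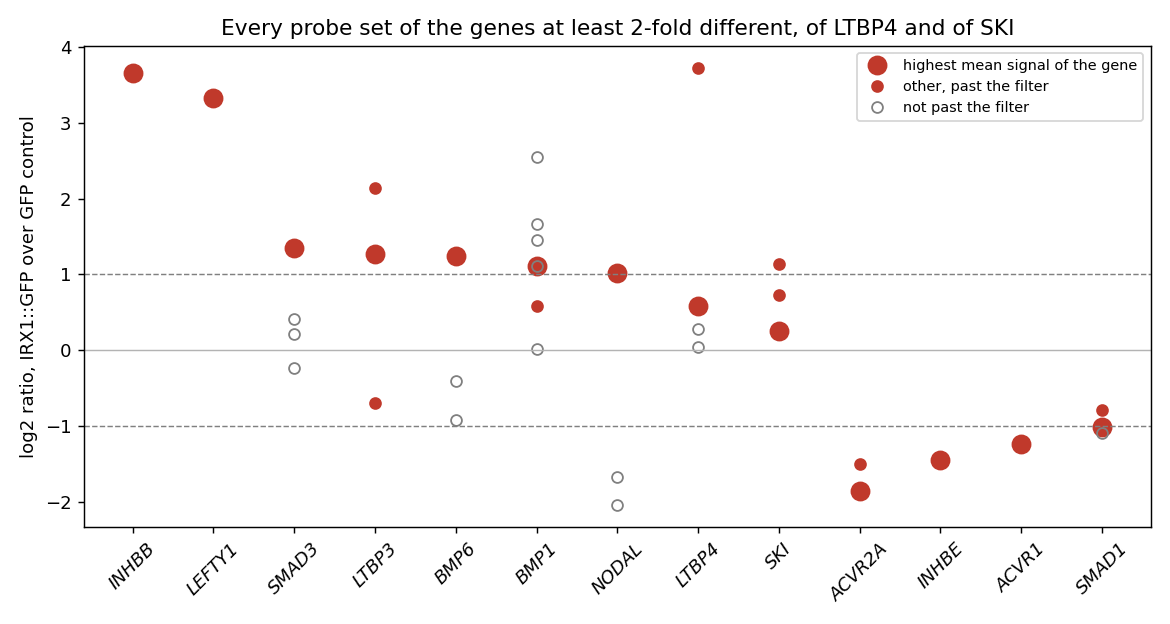
Log2 of IRX1::GFP signal over GFP control signal (y) of every probe set of the 11 genes at least 2-fold different, of LTBP4 and of SKI (x), with large circles for the probe set that represents the gene, small filled circles for others past the filter, open circles for those not past it and dashed lines at 2-fold. Both ACVR2A probe sets lie under -1, whereas those of LTBP3 lie on both sides of 0.

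Of the 42 genes past the filter 22 had more than 1 probe set past it. In 18 of these 22 all such probe sets had the same sign, above 0 in 8 and below 0 in 10. BMP7, TGFBR1, SMAD5 and LTBP3 had both signs. The matching share over all genes was not computed, so this count is not a result about the members. Of the 11 genes at least 2-fold different, 7 rest on 1 probe set past the filter. NODAL and SMAD1, with log2 ratios of 1.02 and -1.01, lay just past 2-fold, and BMP4 and SMURF2, at 0.93 and -0.93, just short of it. All 4 distances from the limit are smaller than the SD between probe sets. Counted as probe sets, 81 passed the filter, with 10 higher and 5 lower by the same limit, where 9.15% and 6.02% of all probe sets were. A sign of RNA quality is the 3-prime signal of a control gene over its 5-prime signal. For ACTB it was 1.64 with IRX1::GFP and 3.23 in the GFP control. For GAPDH it was 1.01 with IRX1::GFP and 1.22 in the GFP control. The log2 ratios of the 6 ACTB and GAPDH control probe sets, IRX1::GFP over GFP control, ran from 0.21 to 1.24. The part of RNA quality in the members' ratios was not tested.

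Among genes known to respond to SMADs, ID1 and GADD45B had much higher signals with IRX1::GFP and CDKN2B a lower one. Of 32 listed target genes 27 passed the filter, 4 of them higher and 2 lower by 2-fold or more, shares of 14.8% and 7.41%, where 10.4% and 5.34% of all genes were. With counts of this size the list cannot be set apart from all genes. Their median log2 ratio was -0.23. The study singled out GADD45B from these samples, so its direction is not independent evidence. ID1, a BMP target that blocks helix-loop-helix factors, was 7.31-fold higher, at 11614 with IRX1::GFP and 1589 in the GFP control. Its relatives were within 2-fold and slightly lower. ID2 read 16922 with IRX1::GFP and 22425 in the GFP control, ID3 6018 with IRX1::GFP and 7054 in the GFP control, and ID4 7742 with IRX1::GFP and 9151 in the GFP control. Of 2 ID2 probe sets past the filter 1 was lower by 2-fold or more, and of 5 ID4 probe sets 1 was higher by as much. GADD45B, a stress and TGF-beta response gene, was 12.4-fold higher, at 32286 with IRX1::GFP and 2613 in the GFP control. All 4 of its probe sets past the filter were higher by 2-fold or more, and with only probe sets named by digits and _at its log2 ratio was 1.64, against 3.63 here. COL1A1, a collagen chain, was 4.08-fold higher, at 2571 with IRX1::GFP and 631 in the GFP control, and had a log2 ratio of 1.10 when its probe sets were averaged. MSX1, a homeobox gene downstream of BMPs, was 2.83-fold higher, at 12137 with IRX1::GFP and 4292 in the GFP control, and its log2 ratio was 0.33 with only _at probe sets.

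On the lower side, CDKN2B, the cell cycle inhibitor p15 that TGF-beta induces in epithelial cells, was 3.73-fold lower, at 1105 with IRX1::GFP and 4118 in the GFP control, with a log2 ratio of -1.18 when its probe sets were averaged. TGIF1, a SMAD corepressor, was 2.06-fold lower, at 414 with IRX1::GFP and 850 in the GFP control, on 1 of 2 probe sets past the filter. Its log2 ratio was -0.10 with only _at probe sets. HEY1, at 18881 with IRX1::GFP and 23596 in the GFP control, and TSC22D1, at 23622 with IRX1::GFP and 18302 in the GFP control, were within 2-fold. SMAD6, SMAD7, SKIL and BAMBI, feedback genes described above, were also on this list and all within 2-fold.

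**Figure D4:**
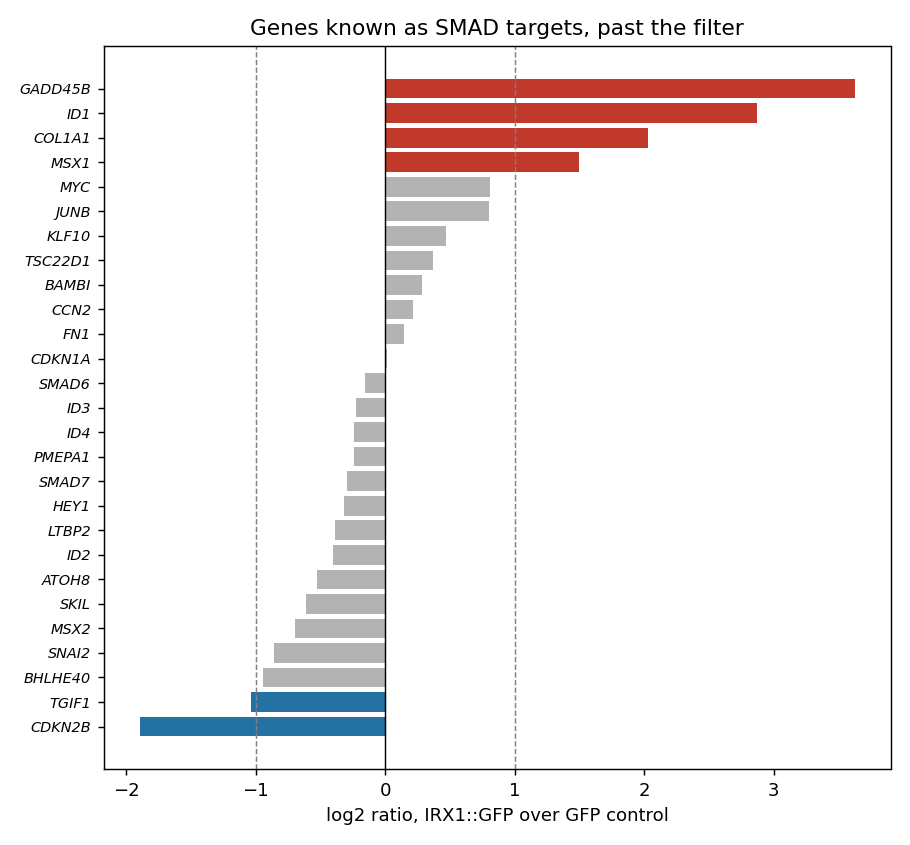
Log2 of IRX1::GFP signal over GFP control signal (x) of the 27 SMAD target genes past the filter (rows), red for higher and blue for lower by 2-fold or more, grey for within 2-fold, with dashed lines at 2-fold. GADD45B and ID1 lie far to the right, and 15 of the 27 lie below 0.

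Of 61 further pathway genes 33 passed the filter, 3 of them higher and 3 lower by 2-fold or more, 9.09% each, where 10.4% and 5.34% of all genes were. Their median log2 ratio was -0.21. FOXH1, the SMAD partner of nodal signalling, was at least 3.27-fold higher, at 468 with IRX1::GFP and 115, under background, in the GFP control. FOXH1 passed the filter only through its IRX1::GFP signal, which favours a positive ratio. The BMP ligand gene GDF7 was 2.15-fold higher, at 1333 with IRX1::GFP and 621 in the GFP control. After median centring the log2 ratio of GDF7 was 0.91, within 2-fold. The BMP coreceptor genes RGMA and RGMB differed in direction. RGMA was 2.08-fold higher, at 662 with IRX1::GFP and 318 in the GFP control. Its log2 ratio was within 2-fold after median centring (0.87), quantile normalization (0.93) and loess (0.94). RGMB was 2.34-fold lower, at 865 with IRX1::GFP and 2024 in the GFP control, with 3 of its 4 probe sets past the filter at least 2-fold lower. ITGAV, the integrin alpha-V chain that helps to release latent TGF-beta, was 2.38-fold lower, at 1309 with IRX1::GFP and 3117 in the GFP control. RNF111, a ubiquitin ligase that removes SKIL and SMAD7, was 2.18-fold lower, at 1285 with IRX1::GFP and 2805 in the GFP control. Genes within 2-fold included STRAP, at 21886 with IRX1::GFP and 30688 in the GFP control, USP9X, at 11632 with IRX1::GFP and 17621 in the GFP control, and EID2, at 13936 with IRX1::GFP and 12373 in the GFP control. Of 2 STRAP probe sets past the filter the other was higher by 2-fold or more.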

How the data were processed

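RNA of 1 sample per condition, IRX1::GFP and GFP control, had been hybridised to HG-U133 Plus 2.0 arrays. The values the authors deposited are linear intensity signals. The submitters' processing notes name MAS5, whose version is not given in the sources used here. Each array had a 2% trimmed mean of 1000, so the authors had scaled the arrays. Probe sets were named from the platform annotation: 41097 had 1 symbol, 1801 several and 11777 none, and 41043 of the 41097 were found in RefSeq (GRCh38.p14) by gene identifier, which gave the current symbol. Log2 ratios were taken without a pseudocount, from each gene's brightest probe set. No test was made between conditions. Members and lists were chosen with earlier results of these data known. Named genes were all members, each target or further pathway gene at least 2-fold different and the 3 brightest within 2-fold. ID3, ID4, INHBC and the feedback genes were added after their values were seen. Alternatives were median centring, quantile normalization, loess (span 0.3), no filter, filters at the 75th percentile or on the olfactory receptor level, and a floor on low signals. Others were averages over a gene's probe sets, only _at probe sets, and each probe set on its own. The _at probe sets are those whose names hold only digits before _at. Such a name does not prove a match to a single gene: the probe set annotated for both LEFTY1 and LEFTY2 has one. The steps were tested on simulated data with planted changes of 4-fold or more. Changes near 2-fold were not planted, and calls among unchanged genes were not counted. Python 3.11.15, numpy 2.4.6, pandas 2.3.3, statsmodels 0.14.6 and matplotlib 3.10.9 were used.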

Additional observations from a re-analysis of the deposited data

Results flagged for a closer look

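The probe set annotated for both LEFTY1 and LEFTY2, which the comparison by gene leaves out, had a signal above background with IRX1::GFP, at 363, and under it in the GFP control, at 138. Its log2 ratio was 1.40, in the direction of the LEFTY1 probe set.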

How the results depend on the processing

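No paired analysis was possible because a single array stood for each condition, and for the same reason none could be left out. The 7 members at least 2-fold higher were 1 with a filter at the 75th percentile, which left 19 members, and 4 with averages over a gene's probe sets. In the other alternatives by gene they were 5 to 8, and the 4 lower members were 3 to 6 in all alternatives. The member median of 0.21 was 0.0128 after median centring, 0.0723 without a filter, -0.38 with the 75th percentile, -0.0046 with the mean over probe sets, 0.0083 with only _at probe sets and -0.068 with each probe set on its own. The 4 higher target genes were 1 with only _at probe sets and 10 counted as probe sets. The 2 lower ones were 4 after median centring, 1 with the 75th percentile, 1 with only _at probe sets and 5 counted as probe sets. A change of sign was seen for 3 members, NODAL (-0.90) and BMP6 (-0.028) with the mean over probe sets, which takes in dim ones, and LTBP3 (-0.70) with only _at probe sets. Of 92 values of the 11 called members under alternatives, 76 stayed at least 2-fold in the same direction. Every value of LEFTY1, INHBB, INHBE, ACVR1 and ACVR2A was among these 76. Many of the 92 values could not move, since a filter selects genes without changing a ratio. LEFTY1, INHBB, INHBE and ACVR1 also have a single probe set each, so averages and the choice of _at probe sets left them unchanged. INHBB and INHBE did not pass the filter at the 75th percentile and have no value there. Over all genes 1267 were higher and 651 lower, and after median centring 889 and 1077. Signals near background limit INHBB, BMP6 and NODAL.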
